A study of Homo sapiens with 40 samples.

Results

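A set of 6 genes that make, sense, move or remove adenosine was followed through 10 human lung cancer cell lines treated with an arginine methyltransferase inhibitor. The 6 genes, of 58336 in the authors' deposited table, are NT5E, ENTPD1, ADORA2B, SLC29A1, ADA and ADK, found by their symbols in every line where they had values. The set was chosen because NT5E was strongly lower in the line EBC1, so the NT5E value of EBC1 selected the members. The EBC1 values of the other genes come from that same comparison, so each is given without a p-value. Means over lines and tests of the spread between lines include EBC1 for members other than NT5E, and are also given without it.

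The study sequenced RNA from 40 libraries. Each of the 10 non-small cell lung cancer lines was grown with dimethyl sulfoxide (DMSO), the solvent control, or with GSK3368712, which blocks type I arginine methyltransferases such as PRMT1, with 2 libraries per arm. By the row labels, SW900, SKMES1, EBC1, NCIH226, LK2 and NCIH520 are lung squamous cell carcinoma lines (LUSC, 6 lines), and PC9, NCIH1975, NCIH1563 and NCIH522 are lung adenocarcinoma lines (LUAD, 4 lines). Each group is thus a set of single established tumour lines, the labels do not spell out the dose and the duration of treatment (sample titles end in D5, and row labels carry 2000 and D5), and it is not stated whether both libraries of an arm are from independent cultures. The p-values within a line therefore measure only the spread between these libraries, which may be technical.

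Extracellular ATP is cut to AMP by ectonucleotidases such as CD39, the product of ENTPD1, and AMP is cut to adenosine by CD73, the product of NT5E. Adenosine then acts on G protein-coupled receptors, of which the A2B receptor (ADORA2B) is coupled to cyclic AMP, or enters the cell through the equilibrative transporter ENT1 (SLC29A1). Inside the cell it is deaminated to inosine by adenosine deaminase (ADA) or phosphorylated back to AMP by adenosine kinase (ADK). In tumours, adenosine made by CD39 and CD73 is known to dampen T cells and natural killer cells.

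The values are the authors' log2 fold changes, with their standard errors (SE), from 1 comparison of both arms in each line. A negative value is read as lower with GSK3368712, since the row labels name the compound before DMSO. The authors' deposited table lists 12721 to 14565 genes per line, those above an FPKM cutoff of 1, and a gene that is not listed in a line had no value there. The median fold change of all listed genes lay between −0.01 and 0.04 in log2 units. The median SE was 0.11 to 0.13 in the 6 LUSC lines and 0.22 to 0.34 in the 4 LUAD lines, so a given change was resolved less well in LUAD lines. Of 5 squamous markers, 1 to 3 were listed in each LUSC line (EBC1 had SOX2 alone, at a relative level of 2.2, in the unit defined below), whereas NCIH1563, NCIH522 and PC9 listed none of 5 adenocarcinoma markers. PC9 listed TP63, KRT5 and KRT6A, and the LUSC line SW900 listed NKX2-1, NAPSA and SFTPB, so markers and subtype labels did not match in every line. Of the leukocyte markers, PTPRC and CD3E were not listed in any line, while CD68 was listed in 8 lines and CD14 in NCIH1975 and SW900 (summed level up to 181 in NCIH1975). Single endothelial markers were listed in LK2, NCIH226, NCIH1563 and PC9, up to 126 for KDR in NCIH226. The part of these markers in the results was not tested.

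Read line by line, most of the calls among the genes were in LUSC lines and NCIH1563. A call here is an adjusted p of at most 0.05 in the authors' deposited table, and the share of all listed genes called lower and higher in the same line is given beside each count. In SW900, 1 of 5 listed members was lower and 1 higher (17.7% and 18% of all genes). In SKMES1, 2 of 5 were lower and 0 higher (15.6% and 15.8%). In NCIH1975, 1 of 5 was lower and 0 higher (3.58% and 4.33%). In LK2, 1 of 4 was lower and 0 higher (19.5% and 19.9%). In NCIH520, 1 of 5 was lower and 0 higher (12.3% and 11.4%). NCIH1563 had 3 of 5 members higher and 0 lower (24.8% of all genes lower and 23.3% higher). NCIH226 had 3 of 4 higher and 0 lower (15.8% lower and 15.5% higher). None of 5 was called in PC9 (1.92% and 2.56%), and none of 4 in NCIH522 (0.75% and 0.912%). EBC1 had 2 of 5 lower and 1 higher (23.4% and 23%), from which nothing is read. Outside EBC1, 6 of 42 listed entries were lower, 7 were higher and 29 were not called. No share over all genes was pooled across lines, so these counts can be set only against the shares of each line above. Wherever a member was called in a line outside EBC1, the share of members called in that direction was larger than among all genes. With so few members, 1 call is already a large share. Counts this small carry little weight, so the genes are described one by one.

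**Figure D1:**
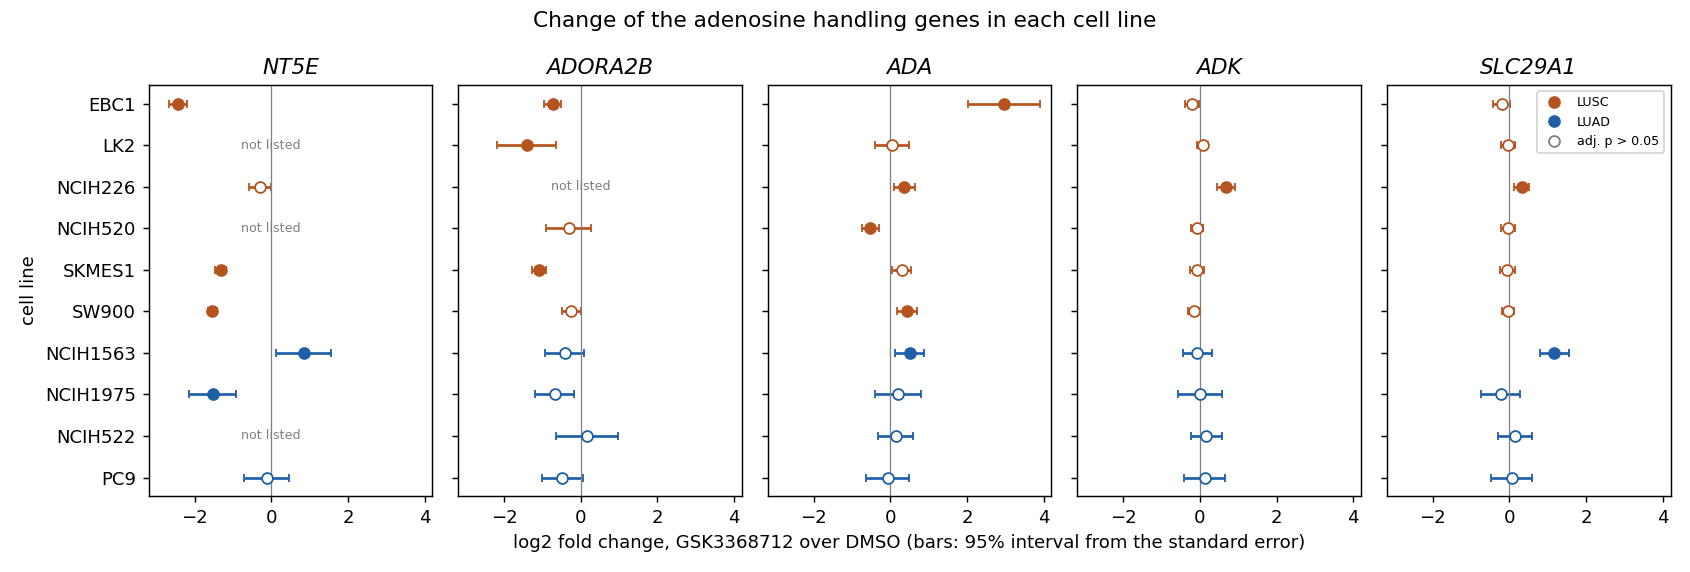
Log2 fold change of GSK3368712 over DMSO (horizontal axis) for 5 genes in each of 10 cell lines (vertical axis), from the authors' deposited table, with 95% intervals from the SE. Filled points have an adjusted p of at most 0.05. NT5E spreads from −2.43 in EBC1 to 0.84 in NCIH1563, while ADK lies within −0.20 to 0.17 in 9 of 10 lines.

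NT5E encodes CD73, the surface enzyme that turns AMP into adenosine. It fell in 3 of the 6 listed lines outside EBC1, was higher in 1, and was not called in 2. Levels are given in parts per 1000000 (ppm) of a line's listed normalized counts, from the mean counts of the authors' deposited table, and the level in each arm was worked out from that mean and the fold change. On this scale, which allows a gene to be compared between lines but not with other genes, NT5E stood at 558 ppm in DMSO and 104 with GSK3368712 in EBC1. It went from 324 to 112 ppm in SW900, from 303 to 121 in SKMES1, and from 21.5 to 7.48 in NCIH1975. In NCIH226 the implied levels were 17.2 and 14 ppm, and in PC9 they were 25.9 and 23.9. The sole line in which it rose, NCIH1563, also had its lowest level, 2.21 ppm in DMSO and 3.97 with the compound. Whether the FPKM cutoff had a part in the listing of NT5E at this low level was not tested. NT5E was not listed in LK2, NCIH520 and NCIH522. The lines thus fall into 3 with NT5E at or above 303 ppm in DMSO, all LUSC, and 4 at or below 25.9 ppm. In bulk RNA, fewer cells with the transcript and less of it per cell cannot be told apart.

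**Figure D2:**
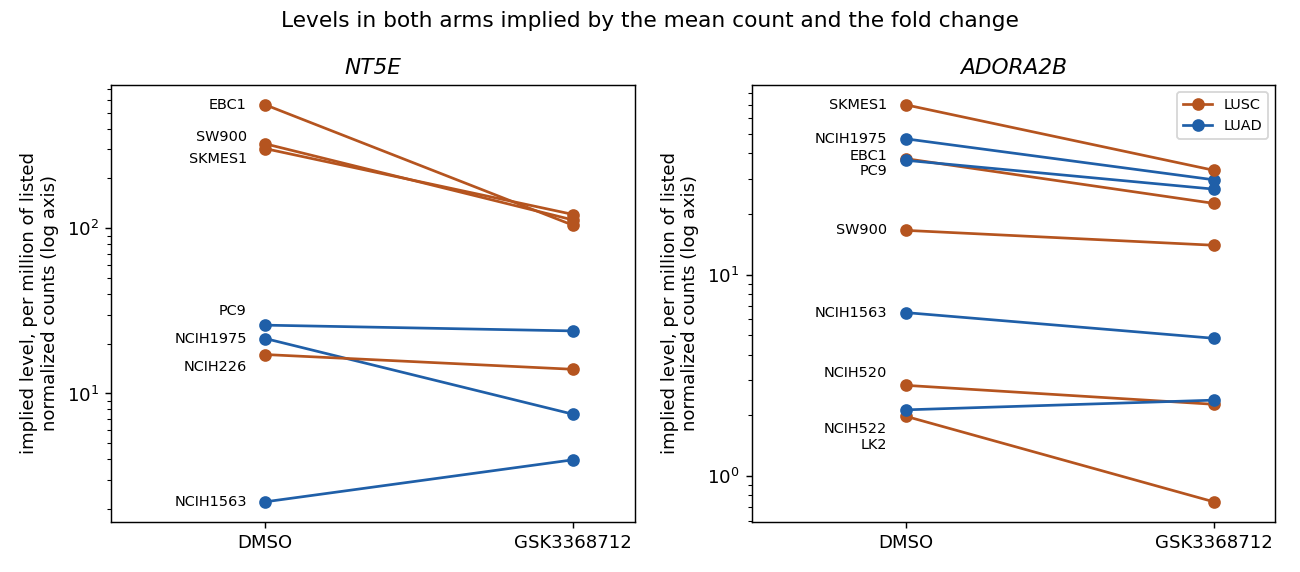
Levels of NT5E and ADORA2B in both arms (horizontal axis) in ppm of listed normalized counts (log axis), worked out from the authors' mean count and fold change, 1 line of the plot per cell line. For NT5E, EBC1, SW900 and SKMES1 start between 303 and 558 ppm in DMSO and end between 104 and 121 with GSK3368712.

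As fold changes, the authors' deposited table gives NT5E −2.43 (SE 0.12) in EBC1, or 18.6% of the DMSO level. That value ranked 26 from the lowest of 13968 genes listed in EBC1. In SW900 the change was −1.53 (SE 0.06, adjusted p = 1.64e-125 in the authors' deposited table), or 34.5% of DMSO. Its ratio of change to SE was the lowest of all 14565 genes listed in SW900, and its fold change itself ranked 90. In SKMES1 the value in the authors' deposited table was −1.32 (SE 0.08, adjusted p = 6.42e-62), or 40% of DMSO, with the ratio of change to SE ranking 6 of 14367 genes. NCIH1975 was lower to a similar fold, −1.52, but with a wider error (SE 0.31, adjusted p = 8.89e-05 in the authors' deposited table). NCIH226 stood at −0.30 (SE 0.15, adjusted p = 0.125) and PC9 at −0.12 (SE 0.30, adjusted p = 0.869) in the authors' deposited table, neither of them called. NCIH1563 stood at 0.84 (SE 0.36, adjusted p = 0.0428 in the authors' deposited table), a 1.79-fold rise with a 95% interval of 1.1 to 2.93.

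The mean NT5E change over the 6 lines without EBC1 was −0.66 ± 0.96 (SD, n = 6 lines), below 0 in 5 of 6. It did not pass limma's moderated test across lines (adjusted p = 0.215), which called 7.18% of 15136 genes lower and 6.73% higher. Leaving out NCIH1563, the line with the rise, gave a mean of −0.96 that passed (limma adjusted p = 0.0404). Omitting any other single line did not pass, with limma adjusted p from 0.216 without PC9 to 0.413 without SW900. Since NCIH1563 is the sole line with a rise, nothing is concluded from the pass without it. The lines differed from each other: Cochran's Q, which sets the spread of the fold changes against the authors' SEs, was 109 with 5 degrees of freedom (adjusted p = 3.02e-20). Such a difference was common, with 55.3% of genes called by the same test. The fold change was more negative in lines with more NT5E (Pearson r = −0.83 and Spearman rho = −0.75 over 7 lines, r = −0.77 and rho = −0.6 over the 6 lines without EBC1). This is a description only, because the level and the change of a line come from the same 4 libraries.

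NT5E lies on chromosome 6 at chr6:85449584-85495791 (GRCh38, GENCODE, plus strand) and overlaps no other annotated gene. The 250 bases before its RefSeq start were searched on both strands, together with those of every other gene, for the cyclic AMP response element half-site TGACG, the GC box GGGCGG and the hypoxia response element cores ACGTG and GCGTG. NT5E held 1 half-site and 2 GC boxes and no hypoxia core, and 75.2% of its window was G or C against a median of 58% over 35116 windows. The full palindrome TGACGTCA, which contains the half-site, was absent from it. TGACG occurred in 21.2% of all windows, GGGCGG in 42.6%, a hypoxia core in 43.2% and TGACGTCA in 1.65%, so none of the matches found is rare. The stretches with the matches are printed for the 2 members that were lower most often, from RefSeq on GRCh38.p14, plus strand, 5′ to 3′. Capitals mark TGACG in the first and the last, and CCGCCC, the GC box as read on the plus strand, in the other.
NT5E chr6:85449944-85449973, 139 to 110 bases before the start: ggtcggatcgggTGACGtcgcgaacttgcg
NT5E chr6:85450011-85450040, 72 to 43 bases before the start: CCGCCCcggccttgacccgggccCCGCCCc
ADORA2B chr17:15944892-15944921, 238 to 209 bases before the start: cgagctcgagcgTGACGggaagttggggca
Both NT5E stretches lie within the first exon of the GENCODE transcript NT5E-203 and upstream of NT5E-201 and NT5E-202. The matches describe the letters and not binding, which was not measured.

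ENTPD1 encodes CD39, which supplies CD73 with AMP. It was listed in NCIH520 alone, a line without NT5E values, so in the authors' deposited table no line had values for both enzymes. There it stood at 0.39 (SE 0.16, adjusted p = 0.0569 in the authors' deposited table) and was not called, at 14.7 ppm. ENTPD1 (chr10:95711779-95869695) shares its strand with AL365273.1 and AL365273.2, so the assignment of reads is uncertain. Its antisense partner ENTPD1-AS1 was listed in all 10 lines, from −0.55 to 0.70, with none called in the authors' deposited table (adjusted p from 0.261 to 0.981).

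ADORA2B encodes the A2B adenosine receptor and was the sole member whose mean change across lines passed the test. It fell in 2 of 8 listed lines outside EBC1 and rose in none. In SKMES1 its implied level went from 69.8 to 33.0 ppm, a change of −1.08 (SE 0.09, adjusted p = 1.17e-29 in the authors' deposited table), 2.11-fold lower. In LK2 it was −1.41 (SE 0.39, adjusted p = 0.00141 in the authors' deposited table), at the lowest level of any line, 1.36 ppm. EBC1 stood at −0.74 (SE 0.11) in the authors' deposited table, with implied levels of 37.7 and 22.6 ppm. The 6 lines without a call ran from −0.68 in NCIH1975 to 0.16 in NCIH522 in the authors' deposited table, with adjusted p from 0.0922 to 0.998. NCIH522 was the sole line above 0, and the gene was not listed in NCIH226.

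The mean over 9 lines was −0.58 ± 0.47 (SD, n = 9 lines), with 8 of 9 below 0 (limma adjusted p = 0.0144). In that fit 10.8% of 12111 genes were lower and 9.36% higher. Without EBC1 the mean was −0.56 ± 0.49 (SD, n = 8 lines), below 0 in 7 of 8 (limma adjusted p = 0.0319). Over all the alternatives in which the gene had a value, the limma or other adjusted p ran from 0.000259 to 0.0392. The size differed between lines beyond the SEs (Cochran's Q = 40.7, adjusted p = 9.45e-06, and 5.35e-06 without EBC1), as it did for 66.2% of all genes. The changes of ADORA2B and NT5E did not run closely together over the 6 lines that listed both (r = 0.37, rho = 0.2, a description). SW900 had NT5E at −1.53 but ADORA2B at −0.25 (SE 0.13), and SKMES1 had both below −1, in the authors' deposited table. ADORA2B is at chr17:15944917-15975746 with no overlapping gene. Its window before the RefSeq start, printed in part above, held 1 half-site, 2 GC boxes and 1 hypoxia core. Most of that window (chr17:15944880-15945129) lies inside the gene as GENCODE gives it, and the printed stretch spans the GENCODE start.

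SLC29A1 encodes ENT1, the main equilibrative carrier of adenosine across the plasma membrane. It rose in 2 of 9 listed lines outside EBC1 and fell in none. In NCIH1563 the implied level went from 11.5 to 26.0 ppm, a change of 1.17 (SE 0.19, adjusted p = 2.23e-08 in the authors' deposited table). NCIH1563 was also the line with the lowest SLC29A1 level. NCIH226 stood at 0.32 (SE 0.10, adjusted p = 0.00479 in the authors' deposited table), from an implied 59.2 ppm in DMSO. The other lines ran from −0.23 in NCIH1975 to 0.14 in NCIH522, the latter with the highest level, 182 ppm. The mean over 10 lines was 0.11 ± 0.41 (SD, n = 10 lines; limma adjusted p = 0.56). It was 0.14 ± 0.41 without EBC1 (SD, n = 9 lines; limma adjusted p = 0.483) and −0.01 without NCIH1563. Differences between lines (Cochran's Q = 51.4, adjusted p = 3.11e-07) rested on NCIH1563, since Q was 16.1 without it (adjusted p = 0.0753) and 46.2 without EBC1 (adjusted p = 1.39e-06). The gene is at chr6:44219505-44234151, with no overlapping gene.

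ADA encodes adenosine deaminase, which removes adenosine as inosine. It was listed in all 10 lines, rose in 3 of the 9 outside EBC1 and fell in 1. The rises were small in the authors' deposited table: 0.50 in NCIH1563 (SE 0.19, adjusted p = 0.0231), 0.44 in SW900 (SE 0.14, adjusted p = 0.00609) and 0.37 in NCIH226 (SE 0.14, adjusted p = 0.0319). SKMES1, at 0.29 (SE 0.12), just missed the threshold with an adjusted p of 0.0502 in the authors' deposited table. NCIH520 was the line with a fall, −0.52 (SE 0.11, adjusted p = 3.98e-05 in the authors' deposited table), from an implied 37.6 ppm in DMSO. LK2, NCIH1975, NCIH522 and PC9 stood between −0.07 and 0.21.

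EBC1 stood apart for ADA, at 2.98 (SE 0.48) in the authors' deposited table, or 7.87-fold higher. It did so from the lowest level of any line, an implied 0.341 ppm in DMSO and 2.68 with GSK3368712, and on a mean normalized count of 97.1 over its 4 libraries. At so low a DMSO level, ADA may have passed the FPKM cutoff in EBC1 only through the compound arm. The direction of its change there may thus be partly set by the cutoff, which was not tested. The level with GSK3368712 in EBC1 thus remained below the DMSO level of LK2, the next lowest line, at 3.52 ppm. Over all 10 lines the mean ADA change was 0.44 ± 0.94 (SD, n = 10 lines; limma adjusted p = 0.254), and without EBC1 it was 0.15 ± 0.31 (SD, n = 9 lines; limma adjusted p = 0.338). The lines differed with EBC1 (Cochran's Q = 85.2, adjusted p = 1.92e-13) and without it (Q = 49.7, adjusted p = 3.53e-07). Over the 7 lines that listed NT5E, its changes and those of ADA gave r = −0.58 and rho = −0.32. These values include EBC1, the line with the lowest NT5E and the highest ADA change. They were not computed without EBC1, so no relation is read from them. ADA is at chr20:44619522-44652233 on the minus strand and overlaps PKIG on the other strand.

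ADK encodes adenosine kinase, which returns adenosine to AMP. It rose in 1 of 9 listed lines outside EBC1, NCIH226, where the authors' deposited table gives 0.68 (SE 0.12, adjusted p = 5.49e-07) from an implied 20.8 ppm in DMSO. Every other line lay between −0.20 in EBC1 and 0.17 in NCIH522 in the authors' deposited table, and none of them was called. The mean was 0.05 ± 0.25 (SD, n = 10 lines; limma adjusted p = 0.745), and 0.07 ± 0.25 without EBC1 (SD, n = 9 lines; limma adjusted p = 0.621). Differences between lines were called with NCIH226 (Cochran's Q = 42.6, adjusted p = 9.93e-06) and not without it (Q = 9.02, adjusted p = 0.399). Without EBC1, Q was 38.1 (adjusted p = 3.42e-05). ADK is at chr10:74151185-74709303, and several pseudogenes lie inside it on the same strand, which leaves the assignment of some reads uncertain. NCIH226 was thus the line in which ADK, SLC29A1 and ADA were all higher, while its NT5E was not called.

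LUAD and LUSC lines were compared because the row labels separate them, and no member passed the test of that difference. For NT5E without EBC1 the mean was −0.26 in 3 LUAD lines and −1.05 in 3 LUSC lines, a difference of 0.79 with a 95% interval of −0.64 to 2.21 (limma adjusted p = 0.999). The exact two-sided permutation test of the subtype labels gave NT5E p = 0.4, where 3 lines against 3 cannot go below 0.1. With EBC1 included for the other members, the LUAD lines stood for ADORA2B 0.40 above the LUSC lines (interval −0.19 to 1.00, limma adjusted p = 0.898). The differences were −0.41 for ADA (interval −1.57 to 0.76), 0.29 for SLC29A1 (interval −0.23 to 0.82) and 0.02 for ADK (interval −0.38 to 0.41). The ADA difference includes the LUSC line EBC1 at 2.98, so nothing is read from its sign or the width of its interval. Without EBC1, 0 members passed. The intervals of NT5E and ADA include differences of more than 1 log2 unit. The limma test called 0.0167% of genes (2 of 11948) with EBC1 and 0% without it (0 of 12971). At an unadjusted p under 0.05 these fits had 775 and 705 genes.

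The other genes of the pathway were read from lists of ectonucleotidases, receptors, transporters, salvage enzymes, intracellular 5′-nucleotidases, cyclic AMP targets and hypoxia targets. Across lines, 64 list genes other than NT5E were tested, and 15 passed limma's test, ADORA2B among them. Of these 15, 11 were lower (17.2% of the 64, against 10.8% of all genes) and 4 higher (6.25% against 9.36%), and the median mean change of the 64 was 0.01, as over all genes. The number past the test was 7 without EBC1, 8 without NCIH226 and 22 without NCIH1563. The adjusted p-values given below for list genes are from the fit with EBC1, so not all of these genes pass without it. The 4 genes of the ectonucleotidase list tested beside NT5E were ENTPD4, ENTPD5, ENTPD6 and ENTPD7. Of these 4, 1 fell and 0 rose (25% and 0%), with a median of the mean changes of −0.10. The ENPP and alkaline phosphatase genes of that list had values in fewer than 7 lines, as had ENTPD1, ENTPD2, ENTPD3 and ENTPD8. They were not tested across lines, so the count does not cover CD39. The gene that fell was ENTPD5, an ectonucleotidase relative that resides in the endoplasmic reticulum, at −0.52 ± 0.58 (SD, n = 10 lines; limma adjusted p = 0.0407). Of 4 receptors tested, ADORA2B alone passed (median −0.04), and none of 8 transporters and ATP release channels did (median 0.10). ADORA2A was listed in 3 lines and ADORA1 in 5, with no call in either.

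Among 17 enzymes of adenosine and AMP breakdown and salvage, 2 fell and 0 rose (11.8% and 0%, against 10.8% and 9.36% of all genes, median −0.11). HPRT1, which salvages hypoxanthine and guanine, was below 0 in 10 of 10 lines, by a small amount (−0.21 ± 0.09, SD; limma adjusted p = 0.0183). AK1, an adenylate kinase that shares its strand with other annotated genes, stood at −0.26 ± 0.23 (SD; limma adjusted p = 0.0376). Among 8 intracellular 5′-nucleotidases, 2 fell and 1 rose (25% and 12.5%, median 0.04). NT5M, the mitochondrial deoxyribonucleotidase, had the most negative mean, −1.25 ± 0.64 (SD, n = 9 lines; limma adjusted p = 0.00122), and was below 0 in 9 of 9 lines. Its mean normalized counts were low, from 54.9 in EBC1 to 513 in NCIH1563. NT5DC1, a nucleotidase domain protein, stood at −0.55 ± 0.23 (SD; limma adjusted p = 0.000674) and was below 0 in 10 of 10. NT5C2, the cytosolic nucleotidase that acts on IMP and GMP, rose, at 0.45 ± 0.30 (SD; limma adjusted p = 0.00659), above 0 in 9 of 10. Its reads may be shared with a pseudogene on the same strand.

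**Figure D3:**
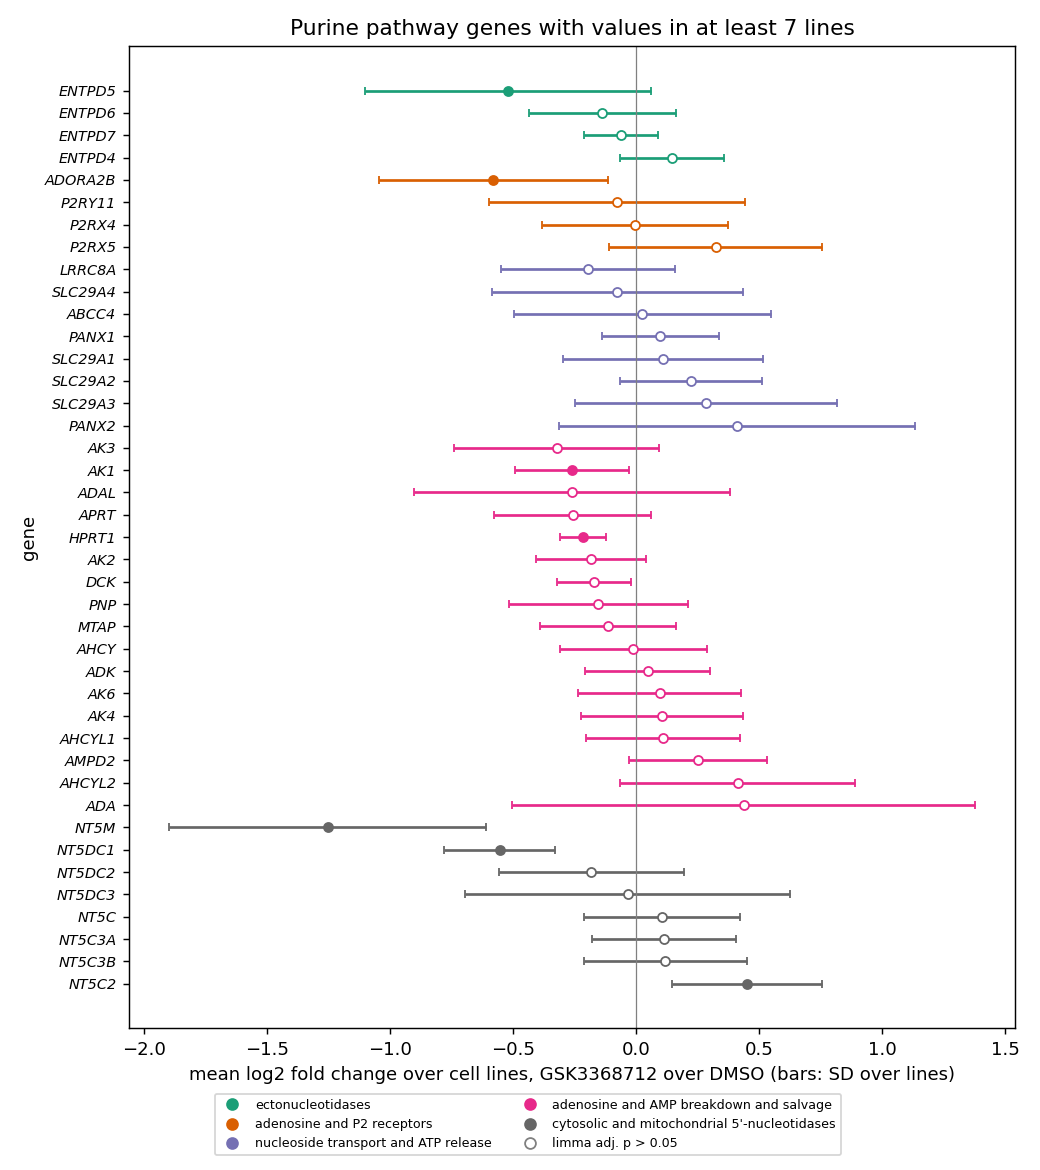
Mean log2 fold change over cell lines (horizontal axis, bars SD over lines) of each purine pathway gene with values in at least 7 lines (vertical axis), coloured by list; NT5E is left out because EBC1 chose it. Filled points passed limma's test across lines, and NT5M at −1.25 and NT5DC1 at −0.55 are the intracellular nucleotidases on the lower side.

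The cyclic AMP and CREB target list, genes that A2B signalling can act on, split, with 1 of 8 lower and 1 higher (12.5% each, median 0.19). CREM, a cyclic AMP responsive transcription factor, stood at −0.25 ± 0.23 (SD; limma adjusted p = 0.0445) and was below 0 in 10 of 10 lines, although its reads may be shared with overlapping genes. CITED2, a transcriptional coregulator, stood at 0.44 ± 0.42 (SD; limma adjusted p = 0.0238). Hypoxia targets were read because NT5E and ADORA2B are known to respond to hypoxia. Of 15 tested, 4 fell and 2 rose (26.7% and 13.3%, against 10.8% and 9.36% of all genes, median 0.03). The glycolytic genes LDHA (−0.27 ± 0.21, SD; limma adjusted p = 0.0253) and PGK1 (−0.31 ± 0.30, SD; limma adjusted p = 0.0366) were lower, each with same-strand overlaps. BNIP3, a mitophagy receptor, and EGLN1, the oxygen-sensing prolyl hydroxylase, were also lower, at −0.42 ± 0.45 (SD; limma adjusted p = 0.0419) and −0.37 ± 0.31 (SD; limma adjusted p = 0.0195). ADM, the vasodilator peptide adrenomedullin, was higher at 0.72 ± 0.59 (SD; limma adjusted p = 0.0105), as was the histone demethylase KDM3A at 0.28 ± 0.28 (SD; limma adjusted p = 0.0445). The list thus moved in both directions, and whether hypoxia or cyclic AMP signalling had a part in the changes of NT5E or ADORA2B was not tested.

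CD73 is not the only surface enzyme that can release adenosine from AMP, and alkaline phosphatases were the leading list genes in several lines. ALPP, the placental alkaline phosphatase, was listed in 5 lines. In the authors' deposited table it was called higher in NCIH1563 (1.12), SW900 (1.86), PC9 (2.18) and NCIH1975 (3.76), and it stood at 5.38 in EBC1. These lines had NT5E lower (SW900, NCIH1975 and EBC1), not called (PC9) or higher (NCIH1563), and SKMES1, where NT5E was lower, did not list ALPP. Its neighbour ALPG was listed in 4 lines. In the authors' deposited table it was called higher in NCIH1975 (4.46) and PC9 (3.02) and not in NCIH1563 (0.49, adjusted p = 0.112), and it stood at 5.16 in EBC1. The intestinal alkaline phosphatase ALPI went the other way, at −1.91 (adjusted p = 6.4e-24) in NCIH1563, the 1 line that listed it in the authors' deposited table. ALPP and ALPG are near-identical paralogs, so the split of reads between them is uncertain. A gene low in DMSO may pass the FPKM cutoff only where the compound arm is higher. The direction of ALPP and ALPG in the lines that list them may thus be partly set by the cutoff. SKMES1 was the line where the largest changes among the ectonucleotidase, receptor, transport, salvage and nucleotidase genes were the members NT5E and ADORA2B themselves. The leading genes elsewhere, in the authors' deposited table, were ENPP3 (1.5) and ENTPD3 (1.44) in LK2, and, beside ALPI, the channel gene PANX2 (1.86) in NCIH1563. In NCIH226 they were NT5M (−2.02) and ENTPD5 (−1.20), in NCIH520 NT5M (−1.47) and ALPL (1.05), and in SW900, beside ALPP, the NAD-cleaving enzyme CD38 (−1.54). The NT5M values rest on low mean normalized counts, 79.1 in NCIH226 and 70.8 in NCIH520.

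Genes whose changes over the 7 lines most resembled those of NT5E were ranked by Pearson correlation among 2208 genes listed in all 7 and changed by at least 1 log2 unit in at least 1 of them. The top 5 were SH3KBP1 (an endocytic adaptor, r = 0.97), NAMPT (the NAD salvage enzyme, r = 0.96), SNORA61 (a small nucleolar RNA inside SNHG12, r = 0.94), TMEM158 (a membrane protein, r = 0.94) and TSPAN5 (a tetraspanin, r = 0.94). SNORA61 shares its strand with SNHG12, so the assignment of its reads is uncertain. Spearman's rho was 0.86 to 0.96, and without EBC1 r stayed between 0.92 and 0.99. These are descriptions over 7 points picked from many genes, and the EBC1 value that chose the set is 1 of the points. The filter itself favours such likeness: SH3KBP1, NAMPT, SNORA61 and TSPAN5 reach 1 log2 unit only in NCIH1563, the line where NT5E was highest in change. Likeness in order did not mean likeness in size. SH3KBP1 ran from −0.37 in EBC1 to 1.02 in NCIH1563 and NAMPT from −0.23 to 1.63 in the authors' deposited table, so neither was lowered as NT5E was. TMEM158 alone among the 5 had similar values, with −1.92 in EBC1, −1.78 in SW900, −1.46 in NCIH1975 and −1.15 in SKMES1 in the authors' deposited table. It departed from NT5E in NCIH226, where it stood at 0.39.

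**Figure D4:**
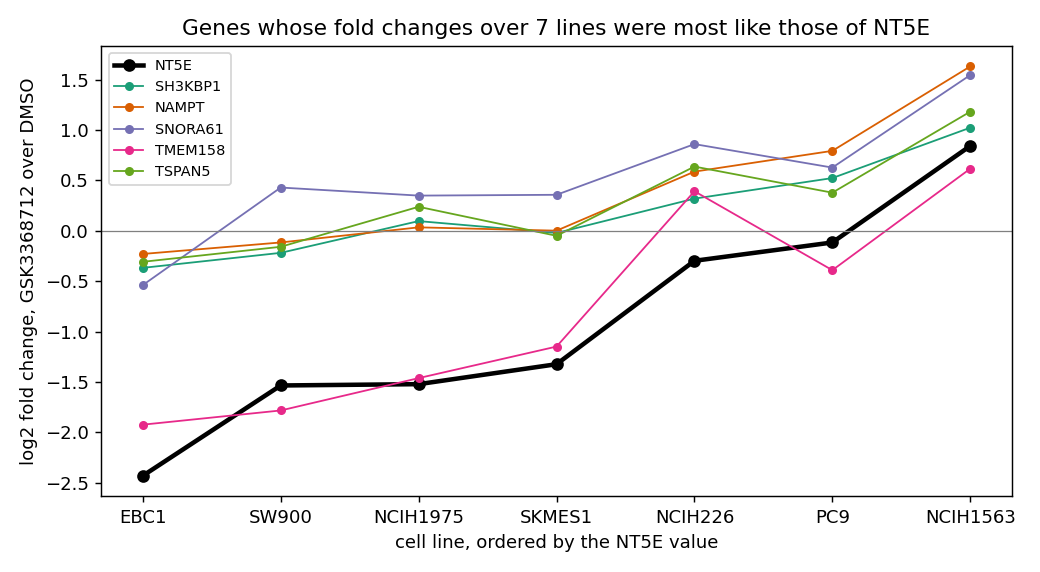
Log2 fold change of GSK3368712 over DMSO (vertical axis) of NT5E and the 5 genes most like it, in 7 cell lines ordered by the NT5E value (horizontal axis), from the authors' deposited table. TMEM158 follows NT5E below −1 in 4 lines, while the other 4 genes stay above −0.6 in every line.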

How the data were processed

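RNA was sequenced from 40 libraries of 10 lines, with 2 per arm. Per the labels, libraries were made with a stranded mRNA kit. Per the submitters' processing notes, FastQC, Salmon 0.12.0, DESeq2 (version not stated) and GRCh38 were used. Per the labels, genes at an FPKM of 1 or less were filtered from each comparison. Neither values per library nor library depth were analysed here, and counting intervals are therefore left out.

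The authors' deposited table gives log2 fold changes with their SEs in log2 units. The authors' DESeq2 p-values were deposited as adjusted for the genes listed in a line. The authors' test statistic, deposited as a score, is the fold change over its SE. In 135777 of 135786 entries, the authors' mark stands for a call at 0.05 whose log2 change is 1 or larger in size. Mean normalized counts, a deposited signal averaged over the 4 libraries of a line, were scaled to a sum of 1000000 over the listed genes. That scale and the implied arm levels were computed here.

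Across lines, limma 3.58.1 in R 4.3.3 tested 1 fold change per line for genes in at least 7 lines, with Benjamini-Hochberg adjustment over all of them. Without EBC1, NT5E has only 6 lines, so the alternative of at least 3 lines was used. Relaxing the minimum for Cochran's Q and the subtype test was chosen after seeing the data. The tests were tested on simulated data.

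Members and lists were chosen with earlier results of these data known. Named genes are the members, list genes past the across-line test, the 2 largest called changes per line in the 5 purine lists, and the 5 genes most like NT5E. Alternatives were other line minimums, centring on each line's median, an ordinary test, random effects, the top 75% of genes by expression, stricter calls, larger SEs and omission of each line. All 6 members matched the RefSeq promoter table. Positions came from GENCODE 29. Figures were drawn with matplotlib 3.10.9.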

Additional observations from a re-analysis of the deposited data

Results flagged for a closer look

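In 3 members, 1 line stood far from the others by Dixon's criterion, which flags about 1 group in 20 by chance. For ADA this was EBC1, at 2.98 in log2 units with the next line at 0.50 (gap over range 0.707, limit 0.466 for 10 lines). The EBC1 value belongs to the comparison that chose the set, so this is a description. The ADA level in EBC1 was the lowest of the 10 lines, and the part of that level, or of the FPKM cutoff, in the value was not tested. For SLC29A1 it was NCIH1563, at 1.17 with the next line at 0.32 (0.612), and for ADK it was NCIH226, at 0.68 with the next line at 0.17 (0.582).

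The fold changes differed between lines, beyond the deposited SEs, for all 5 members with enough lines (Cochran's Q). Those SEs come from 2 libraries per arm, whose spread may be technical, so spread between cultures cannot be told apart from a different effect of the compound. Q was 109 for NT5E over 6 lines without EBC1 (adjusted p = 3.02e-20), 85.2 for ADA (adjusted p = 1.92e-13), 51.4 for SLC29A1 (adjusted p = 3.11e-07), 42.6 for ADK (adjusted p = 9.93e-06) and 40.7 for ADORA2B (adjusted p = 9.45e-06). The same test called 55.3% of all genes in the fit used for NT5E and 66.2% in the fit used for the other members. By Cochran's Q, ADK was not called without NCIH226 (adjusted p = 0.399), nor SLC29A1 without NCIH1563 (adjusted p = 0.0753).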

How the results depend on the processing

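No paired analysis was possible because values per library were not analysed here. ADORA2B, the 1 member past the across-line test, stayed past it in all 14 alternatives in which it had a value. With genes listed in every line, or in the top 75% by expression, it had no value and the number of members past the test was 0. The mean of NT5E without EBC1 passed with random effects (−0.72, adjusted p = 0.0195) and with the top 75% of genes (−0.96, adjusted p = 0.0403), a filter that drops NT5E in NCIH1563 and so gives the mean found without that line. Leaving out each line moved it from −0.96, without NCIH1563, to −0.48, without SW900. With at least 7 lines, or every line, it could not be fitted. Leaving out only NT5E in EBC1, 8 member entries were called higher and 7 lower, with ADA and ADORA2B in EBC1 among them. Without EBC1 the counts were 7 and 6. No share over all genes was pooled for these counts, so nothing is read from them. The 8 were 2 with the authors' mark and 5 at an adjusted p of at most 0.01, and the 7 were 5 with the mark and 7 at 0.01. List genes past the test were 15, and 7 to 22 when each line was left out. The uncalled means of SLC29A1 (−0.0087 without NCIH1563, up to 0.15) and ADK (−0.024 without NCIH226, up to 0.074) changed sign. The number of members that differed between lines was 4 or 5, and by subtype 0, in all alternatives. The wider SEs limit what could be called in NCIH1975, NCIH522 and PC9.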
